A study of Homo sapiens with 4 samples.

Results

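The genes of human chromosome 10 were followed by position in carfilzomib-resistant and wild-type myeloma cells. Members are the genes that GENCODE release 29 (GRCh38) places on the chromosome and whose mean over the 4 libraries was at least 1 FPKM (fragments per kilobase of transcript, adjusted for the size of the library). Of 15201 genes in the table, 535 lay on chromosome 10, 480 of them reached 1 FPKM and 55 did not. The short arm (10p) held 124 members and the long arm (10q) 356, and 384 members were protein-coding. Just inside the limit lay ELOVL3, with a mean of 1.0003 FPKM, and ENSG00000235426, with 1.0005. Just outside it lay LINC02649, with 0.936, and ENSG00000234134, with 0.928.

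A chromosome arm carries genes of unrelated function that share little but their position. Myeloma genomes are known for gains and losses of whole arms, which were not measured here. Among its genes, chromosome 10 carries the desaturase SCD, the noncanonical NF-kB subunit NFKB2, the inhibitor of kappa B kinase CHUK, the mitotic kinase CDK1 and the proliferation antigen MKI67. Carfilzomib is an irreversible inhibitor of the proteasome, the complex that degrades ubiquitin-tagged proteins, on which antibody-secreting plasma cells depend strongly.

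ARP-1 is a human multiple myeloma cell line, and the comparison asks how resistant cells differ from the parental line. Wild-type cells (WT) and carfilzomib-resistant cells (CfzR) were each sequenced in 2 libraries, numbered replicate 1 and 2. The labels give no dose, time in drug or clone, and do not say that the replicates were separate cultures. P-values therefore measure the spread between libraries alone, and that spread may be technical. The 11 plasma cell markers sought were all in the table, and summed to 19700 and 15800 FPKM in WT, against 20400 and 23900 in CfzR. IGKC, the kappa light chain, made up most of these sums (13828, 9844, 13684 and 17706). TNFRSF17 (312, 382, 194 and 275) and XBP1 (953, 1084, 800.03 and 868) were lower in CfzR, and SLAMF7 (0.282, 0.198, 22.1 and 18.7) was higher. None of the B cell (4 sought), monocyte (5) or erythroid (3) markers had a row among the deposited genes; 1 of 5 T and NK cell markers (23.4 and 25.2 in WT, 1.35 and 1.8 in CfzR) and 2 of 6 epithelial and stromal markers (6.28 and 6.79, 2.1 and 3.7) did. The sum of FPKM over all genes was 918617 and 955284 in WT, against 673265 and 877849 in CfzR, so CfzR replicate 1 stood apart. In bulk RNA, fewer cells with a transcript and less transcript per cell cannot be told apart.

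The promoters of 3 of the 4 members with the largest change under the naming rule are shown. ATRNL1 and ACBD7 stood above the rest of the chromosome and SEC31B under it. Apart from calls past the adjusted threshold, that rule asks for a group mean of at least 5 FPKM. SPOCK2, which changed more than ACBD7 and SEC31B but at low levels, was therefore not among them. Each is the 250 bases before the RefSeq start of the gene (GRCh38.p14), 5′ to 3′ on the strand of the gene. ATRNL1 is at chr10:115093115-115093364 (plus strand), SEC31B at chr10:100519862-100520111 (minus) and ACBD7 at chr10:15088777-15089026 (minus). Capitals mark matches, on either strand, to the TATA box (TATAAA), the CCAAT box (CCAAT), the GC box (GGGCGG), the AP-1 site (TGANTCA) and the NF-kB site (its consensus, with 1 base left free).
ATRNL1: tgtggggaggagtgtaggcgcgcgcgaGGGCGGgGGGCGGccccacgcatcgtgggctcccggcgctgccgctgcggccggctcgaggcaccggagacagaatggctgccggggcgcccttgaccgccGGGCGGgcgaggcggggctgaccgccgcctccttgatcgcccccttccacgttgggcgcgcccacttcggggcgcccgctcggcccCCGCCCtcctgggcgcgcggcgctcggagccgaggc
SEC31B: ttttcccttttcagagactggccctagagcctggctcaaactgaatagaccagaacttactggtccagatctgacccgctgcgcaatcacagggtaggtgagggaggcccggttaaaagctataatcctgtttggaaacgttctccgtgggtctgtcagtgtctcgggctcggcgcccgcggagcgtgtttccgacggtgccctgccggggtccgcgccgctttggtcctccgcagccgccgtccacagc
ACBD7: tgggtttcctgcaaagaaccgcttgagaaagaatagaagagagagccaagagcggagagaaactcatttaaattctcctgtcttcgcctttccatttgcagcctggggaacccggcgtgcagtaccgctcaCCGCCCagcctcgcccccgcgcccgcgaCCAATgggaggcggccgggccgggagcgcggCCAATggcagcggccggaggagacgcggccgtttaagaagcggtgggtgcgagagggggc
The ATRNL1 window had 80.0% G and C and 4 GC boxes, at 223, 216, 122 and 36 bases before the start. The ACBD7 window, at 63.6% G and C, had 2 CCAAT boxes and 1 GC box, and the SEC31B window, at 60.4%, matched none of the motifs. Of 35116 RefSeq promoter windows of the same length, 42.6% held a GC box, 32.0% a CCAAT box, 10.7% a TATA box, 6.57% the AP-1 letters and 0.527% the NF-kB letters. A match describes letters in the window and no more. A RefSeq promoter was found for 357 members. The window of NDUFB8, the fourth gene, reaches 77 bases into an annotated transcript and is not shown.

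Most members were lower in the resistant cells, on both arms and in both CfzR libraries. The chromosome was chosen with this contrast known, so its counts and medians are descriptions with no test. The median log2 fold change (CfzR minus WT, on the log2(FPKM + 1) scale) was -0.25 over the 480 members and -0.02 over 11971 tested genes of the other autosomes, and chromosome 10 had the lowest median of the 22 autosomes, ahead of chromosome 19 at -0.16 and chromosome 16 at -0.12. In all, 374 members lay below 0 (77.9%, against 52.9% of the 13411 genes tested). Both CfzR libraries were below both WT libraries for 235 members (49%, against 22.6% of all genes) and above both for 30 (6.25%, against 22.1%). At an unadjusted p under 0.05 in limma, 63 members were lower (13.1%, against 5.81%) and 9 higher (1.88%, against 5.32%). The short arm of chromosome 6, with 280 genes, had like shares. There 77.9% lay below 0, 50.4% had both CfzR libraries below both WT and 7.14% had both above. At the same unadjusted p, 21.1% of its genes were lower and 2.5% higher. The lower share of chromosome 10 members changed with the library left out. Such fits keep a lone library in a group, and no share over all genes was made for them. The chromosome 10 median log2 fold change ran from -0.26 to -0.2 over these fits. After Benjamini-Hochberg adjustment over all genes tested, 1 member passed 0.05, ATRNL1, which was higher, against 0.35% of all genes in either direction and 0.246% higher. ATRNL1 reached the limit of 1 FPKM only through the CfzR libraries. No member was called lower (all genes, 0.104%), and the smallest adjusted p among lower members was 0.166, for GATA3.

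The distribution lay lower from the 5th to the 95th percentile, not in one tail alone. At the 25th percentile the members stood at -0.458 and the other autosomes at -0.263, and at the 75th at -0.028 and 0.218. The lower end was closer, with 5th percentiles of -0.79 and -0.702. At the far end the order turned, with 0.685% of the other autosomes at or below -1.25 and no member there. A log2 fold change under -0.5 was found for 99 of the 480 members and one above 0.5 for 12. Of the 11971 genes of the other autosomes, 10.7% lay at or below -0.5 and 92.3% at or below 0.5.

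**Figure D1:**
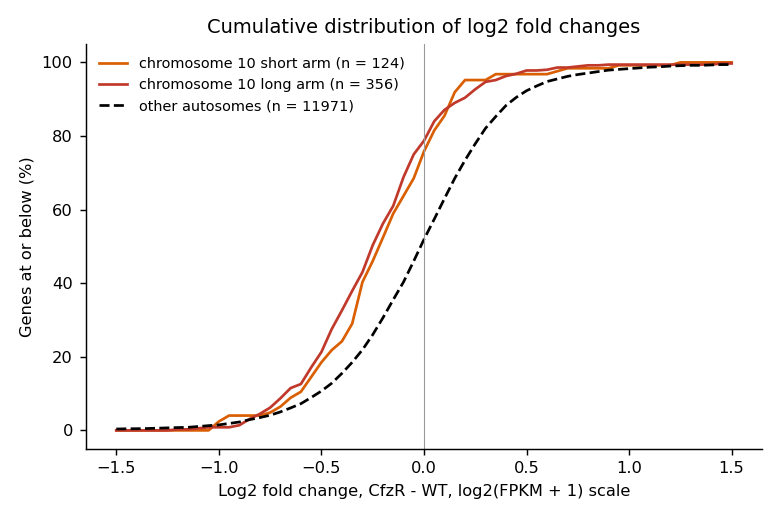
Cumulative share of genes (%) against the log2 fold change, CfzR minus WT, for 10p (124 genes), 10q (356 genes) and the other autosomes (11971 genes). Both chromosome 10 curves run to the left of the other autosomes through the middle of the range, and the 3 curves draw together at the lower end.

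As plain ratios of mean FPKM, over the 234 members with a mean of at least 10 FPKM, the median CfzR level was 0.776 of the WT level (quartiles 0.683 and 0.902), and 206 ratios (88.0%) were below 1. For 6227 genes of the other autosomes the median was 0.943 (quartiles 0.808 and 1.1), and 60.7% were below 1. The chromosome 10 median was 0.823 of that of the other autosomes. On 10p the median ratio was 0.798 and on 10q 0.763. By library, the chromosome 10 medians were 0.766 for CfzR replicate 1 and 0.789 for CfzR replicate 2, each against the WT mean. The other autosomes stood at 0.886 and 0.985. Relative to them, chromosome 10 was at 0.865 in CfzR replicate 1 and 0.801 in CfzR replicate 2, so the order was reversed.

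Each library had its own position. The median deviation of the members from their gene means, less the same median on the other autosomes, was 0.099 and 0.121 in the WT libraries, against -0.066 and -0.154 in CfzR replicates 1 and 2 (log2 scale). Both CfzR libraries were thus below both WT libraries, and the groups did not overlap. With 2 libraries a group, an exact two-sided permutation test cannot go below 0.333. Of the 480 members, 328 were lower than the WT mean in CfzR replicate 1, 393 in CfzR replicate 2 and 293 in both, and 52 were higher in both. No such counts were made for other genes, and the baseline differed between the libraries. Against the WT mean, the median of the other autosomes was -0.034 in CfzR replicate 1 and 0.008 in CfzR replicate 2. For the members it was -0.204 and -0.257. Each CfzR library set against each WT library gave a chromosome 10 median of -0.166 to -0.276 relative to the other autosomes. The same difference between the WT libraries (replicate 2 minus 1) was 0.019, and between the CfzR libraries -0.086.

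The arms differed little from each other. The median was -0.22 on 10p and -0.25 on 10q. On 10p, 94 of 124 members were below 0 (75.8%) and 52 had both CfzR libraries below both WT (41.9%, against 22.6% of all genes). On 10q these were 280 of 356 (78.7%) and 183 (51.4%). Among the 39 arms with at least 50 tested genes, 10q was second lowest and 10p the third, behind the short arm of chromosome 6 (6p) at -0.30 and ahead of 19p at -0.19.

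The order of the arms depended on the library, and the GC share of transcripts moved with it. In CfzR replicate 1, 16p (-0.36) and 19p (-0.34) were lowest, 10q stood 5th and 10p 8th, and over the 37 arms other than 10p and 10q the medians were lower on arms with a higher median GC share (Pearson r = -0.842, arms of the same libraries, a description). In CfzR replicate 2 that correlation was -0.312, and 6p (-0.29), 10q (-0.27) and 10p (-0.23) were the 3 lowest arms, well apart from the next, 2q at -0.08. The median GC share of members was 45.3% (10p, 44.0%, and 10q, 46.1%), against 48.5% on the other autosomes. Of the 14 other arms under 47% GC, 11 had a median above 0, and the lowest of them, 2q, stood at -0.13. Just above that limit, 6p had a GC share of 48.2% and lay under 10p and 10q in both libraries. Against 6p, the median deviation of its members was 0.044 higher in CfzR than in WT, relative to that arm.

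**Figure D2:**
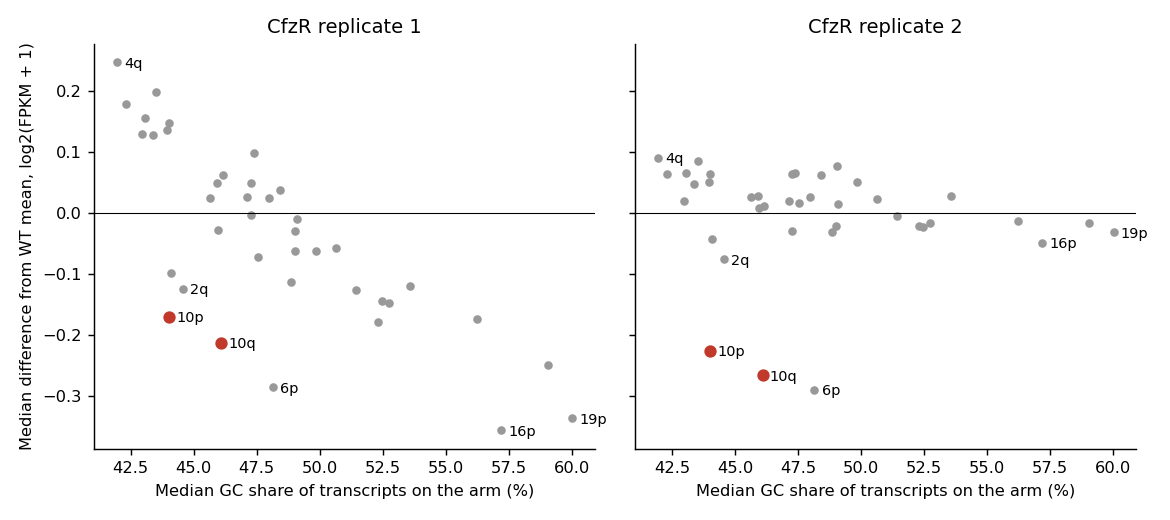
Median difference from the WT mean on the log2(FPKM + 1) scale, for each arm with at least 50 tested genes, against the median GC share of its transcripts (%), in CfzR replicate 1 (left) and CfzR replicate 2 (right). Red points are 10p and 10q; in replicate 2 they lie with 6p, apart from the other arms.

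Members were also set beside genes of other autosomes of like level, GC share and length. The difference in medians was -0.194 at a mean of 1 to 5 FPKM, -0.263 at 5 to 20, -0.297 at 20 to 100 and -0.292 at 100 or more. Of the 31 members at 100 FPKM or more, 29 were below 0 (93.5%), against 79.5% of other autosomal genes that abundant. The difference lay between -0.27 and -0.243 over 4 ranges of GC share. By the length of the longest transcript it was -0.124 in the shortest of 4 ranges and -0.245 to -0.293 in the 3 longer ones. It was -0.252 for the 384 protein-coding members and -0.257 for 48 noncoding RNA genes. The exception was the 45 pseudogenes, whose median was -0.166 on chromosome 10 and -0.288 elsewhere; reads of processed pseudogenes can come from their parent genes on other chromosomes, so their values are uncertain.

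Along the chromosome, the members lay low over most of its length, with a trough on 10q. The stretches from 40 to 50 Mb and from 60 to 70 Mb came closest to the other autosomes, with medians of -0.09 and -0.12. A rolling median over 21 consecutive members was below 0 in 459 of 460 windows (99.8%), against 49.9% of 11551 windows on the other autosomes. That share varied widely between the other autosomes, from 2.42% on chromosome 21 to 90.7% on chromosome 19. It was also high on chromosomes 16 (87.8%), 20 (86.1%) and 22 (84.8%). On chromosome 10 the rolling median ran from -0.52 to 0.01, where the other autosomes ran from -0.72 to 1.2. Every other autosome had a window with a higher median than the highest one here. In CfzR replicate 1, 421 windows were below 0 (-0.59 to 0.06), and in CfzR replicate 2 all 460 were (-0.45 to -0.03). Between the WT libraries the windows ran from -0.11 to 0.22.

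**Figure D3:**
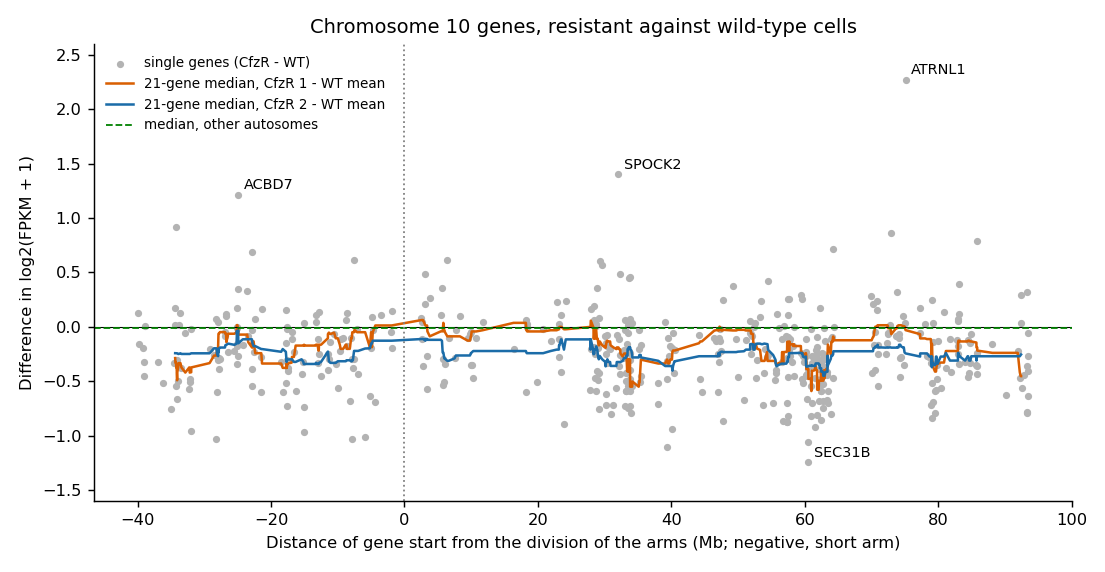
Difference in log2(FPKM + 1) for each chromosome 10 member (grey, CfzR minus WT) and rolling medians over 21 members for CfzR replicates 1 and 2 against the WT mean, by distance in Mb from the division of the arms. The replicate 2 line stays below 0 throughout, the replicate 1 line touches or passes 0 in places, and ATRNL1, SPOCK2 and ACBD7 stand highest.

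Among stretches of 10 Mb with at least 20 members, the lowest ran from 100 to 110 Mb, where 58 of 61 members were below 0 and the median was -0.39 (CfzR replicate 1, -0.40, and CfzR replicate 2, -0.36). Both CfzR libraries were below both WT for 46 of these members (75.4%, against 49% of the chromosome and 22.6% of all genes). A thin stretch at the end of 10q, from 130 to 140 Mb with 15 members, had a median of -0.41 (-0.56 and -0.22 in CfzR replicates 1 and 2) and a median GC share of 59.5%. The lowest window ran from FBXL15 to STN1 (chr10:102419189-103918205): all 21 members were below 0, and both CfzR libraries were below both WT for 18 (85.7%, in a window picked for its low median). FBXL15, a substrate receptor of an SCF ubiquitin ligase, stood at 77.7 and 85.6 FPKM in WT, against 32.6 and 61.0 in CfzR. STN1, a subunit of the CST complex at telomeres, stood at 16.9 and 15.8 in WT, against 7.90 and 10.1 in CfzR (log2 fold change -0.80 with an SE of 0.206, adjusted p = 0.222, limma). Beside it lay the longest run of consecutive members below 0, 32 genes from CUTC to NOLC1 (chr10:99702558-102163871) with a median of -0.37. The members from 100 to 110 Mb had a median GC share of 51.4%, above the 45.3% of the chromosome.

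The other end of the range lay at 62 to 69 Mb. The highest window ran from ADO to STOX1 (chr10:62804857-68895432), with 10 of 21 members below 0 and 5 with both CfzR libraries under both WT. In this window, picked for its high median, both counts were near the shares over all genes tested, 52.9% and 22.6%. ADO, a dioxygenase for thiols, stood at 13.3 and 13.99 FPKM in WT, against 17.6 and 14.9 in CfzR. SIRT1, an NAD-dependent deacetylase of the same window, was at 5.28 and 5.02 in WT, against 7.29 and 4.70 in CfzR, with CfzR replicates on either side of WT. In the stretch from 60 to 70 Mb the median was -0.02 in CfzR replicate 1 and -0.20 in CfzR replicate 2. The median GC share there was 41.2%, the lowest of the stretches with at least 20 members, and whether it bears on the gap between the replicates was not tested.

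ATRNL1, a transmembrane protein related to attractin, was the one member past the adjusted threshold and rose. It stood at 0.388 and 0.776 FPKM in WT, against 7.70 and 5.60 in CfzR. With a WT mean of 0.582 FPKM, it reached the 1 FPKM limit only through the CfzR libraries. Both CfzR libraries were far above both WT libraries, and the ratio of means was 11.4 (log2 fold change 2.27 with an SE of 0.263, adjusted p = 0.0264, limma). Leaving out CfzR replicate 1 gave a log2 fold change of 2.07 with an adjusted p of 0.189, and leaving out CfzR replicate 2 gave 2.47 and 0.0838. Leaving out WT replicate 1 or 2 gave 2.09 and 2.45, with adjusted p of 9.8e-05 and 2.2e-06. In each of these fits the lone library is assumed to vary like the other group. The gene lies at chr10:115093365-115948992, and the 19 other members from GPAM to PDZD8 (chr10:112149864-117375467) had a median of -0.07, with 13 below 0. TCF7L2, a transcription factor of Wnt signalling and one of these neighbours, was named after its values were seen: it stood at 0.529 and 0.414 in WT, against 1.74 and 1.62 in CfzR (adjusted p = 0.283, limma). TCF7L2 also reached the limit only through CfzR.

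A few other members went against the chromosome without passing the adjusted threshold. Under the naming rule, 4 members qualified as higher (the others being ACBD7, HK1 and DHX32) and 58 as lower. ACBD7, an acyl-CoA-binding protein at chr10:15077523-15088776 on 10p, stood at 5.94 and 6.03 FPKM in WT, against 17.8 and 13.02 in CfzR (ratio 2.57, log2 fold change 1.22 with an SE of 0.219, adjusted p = 0.110, limma). HK1, hexokinase 1, the first enzyme of glycolysis, stood at 6.93 and 7.23 in WT, against 11.6 and 10.96 in CfzR (adjusted p = 0.317). In both genes the groups were well separated. DHX32, an RNA helicase-like protein, stood at 2.35 and 4.05 in WT, against 7.08 and 5.29 in CfzR. It overlaps BCCIP on the opposite strand by 17359 bases. BCCIP, a partner of BRCA2 and p21, stood at 45.7 and 47.7 in WT, against 34.7 and 33.9 in CfzR. The values of this pair are uncertain, since no source used here gives the strandedness of counting. SPOCK2, a secreted proteoglycan, was named after its values were seen: 0.116 and 0.544 in WT, 2.65 and 2.29 in CfzR (ratio 7.49, adjusted p = 0.137, limma). SPOCK2 reached the limit of 1 FPKM only through CfzR. DDIT4, a stress-induced inhibitor of mTORC1, stood at 270.4 and 275.9 in WT, against 383.7 and 383.5 in CfzR (adjusted p = 0.495).

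The members with the most negative values lay on both arms. SEC31B, a paralogue of the COPII coat protein SEC31A (chr10:100486642-100519864), had the lowest log2 fold change of the named genes. It stood at 18.4 and 20.3 FPKM in WT, against 5.22 and 10.9 in CfzR (ratio 0.416, log2 fold change -1.24 with an SE of 0.312, adjusted p = 0.219, limma). Next to it, 3.88 kb away, lies NDUFB8, an accessory subunit of mitochondrial complex I, at 575 and 738 in WT, against 236 and 410 in CfzR (adjusted p = 0.324); it overlaps the start of HIF1AN on the other strand by 929 bases. In both genes CfzR replicate 1 was the lowest library. FRAT1 and FRAT2, paralogues that bind GSK3 in Wnt signalling, lie 10.58 kb apart. FRAT1 stood at 30.9 and 29.9 in WT, against 14.7 and 17.7 in CfzR (ratio 0.533), and FRAT2 at 91.3 and 96.3 and at 47.2 and 54.5 (ratio 0.542). The groups were clearly apart in both, and reads shared between the paralogues could be split by the counting.

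On 10p, the transcription factor GATA3 stood at 20.3 and 25.9 FPKM in WT, against 10.4 and 12.3 in CfzR (ratio 0.491, log2 fold change -0.96 with an SE of 0.213, adjusted p = 0.166, limma). Its antisense neighbour GATA3-AS1, which overlaps it by 3035 bases, stood at 0.914 and 1.20 in WT, against 0.626 and 1.497 in CfzR. PROSER2 stood at 5.20 and 7.37 in WT, against 2.57 and 2.46 in CfzR (ratio 0.400). PARD3, a scaffold of cell polarity, stood at 37.9 and 70.0 in WT, 21.2 and 29.4 in CfzR. All of these but GATA3-AS1 had both CfzR libraries under both WT. On 10q, ANXA11, a calcium-dependent phospholipid-binding protein, stood at 176.5 and 173.1 in WT, against 64.4 and 127.3 in CfzR. PAPSS2, which makes the sulfate donor PAPS, stood at 10.6 and 7.90 in WT, against 5.26 and 3.94 in CfzR. The ribosomal protein pseudogenes RPL7AP50 and RPL13AP5 and the gene DPCD complete the 12 named for a low value, with ratios of 0.526, 0.561 and 0.520.

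**Figure D4:**
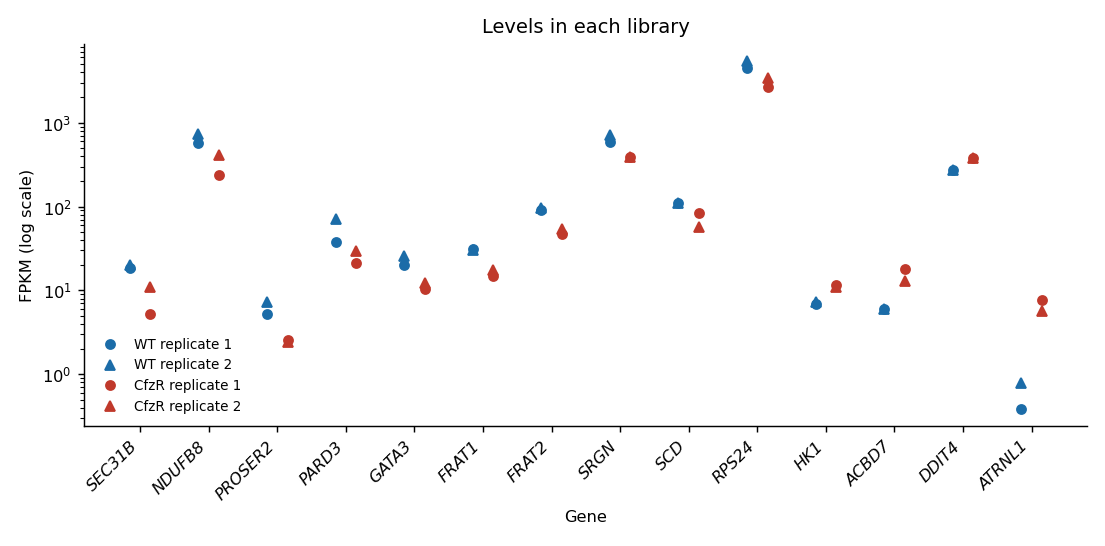
FPKM (log axis) of 14 members in each of the 4 libraries, WT in blue and CfzR in red, replicate 1 as circles and replicate 2 as triangles. The CfzR points lie under the WT points in the 10 genes on the left and above them in HK1, ACBD7, DDIT4 and ATRNL1.

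The members were grouped by role in 13 lists written from gene names, which hold 257 members; the other 223 are in none. The median was -0.24 in the first and -0.26 in the second, and each of the 13 lists had a median below 0, from -0.39 to -0.08, beside -0.25 for the chromosome and -0.02 for the other autosomes. No list had a member called lower. The shares of each list given next stand beside 22.6% of all genes and 49% of chromosome 10 members with both CfzR libraries below both WT, and 22.1% and 6.25% with both above. At an unadjusted p under 0.05 the shares were 5.81% lower and 5.32% higher over all genes, and 13.1% and 1.88% on the chromosome. Some genes were listed loosely: ATRNL1, ADO, ABLIM1, NRBF2 and CUEDC2 stand in the chromatin list, FRA10AC1 in the lipid list, PAPSS2 and RPP30 in the DNA repair list and CALHM2 in the secretory list, though none is chiefly known for that role. These are examples. Others are NMT2 and RSU1 in the RNA list, WDR11 in the DNA repair list and ACTR1A in the growth signalling list. Counts and medians describe the lists as written.

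**Figure D5:**
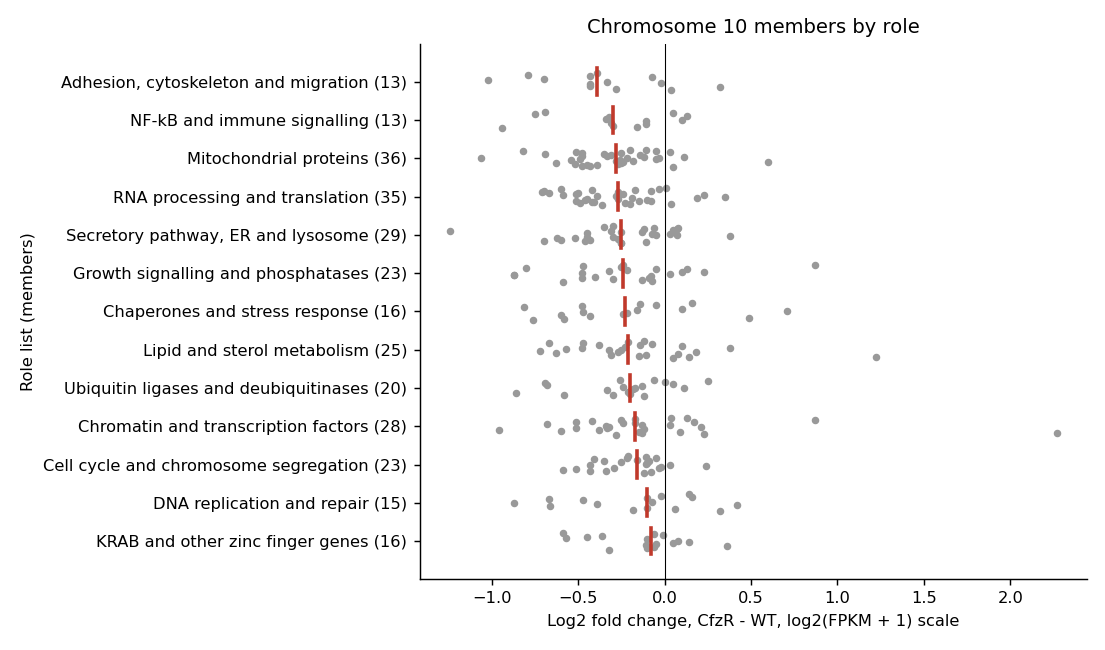
Log2 fold change (CfzR minus WT, log2(FPKM + 1) scale) of the members of each role list, with the number of members in brackets and the list median as a red bar. All 13 medians lie below 0, from -0.39 for adhesion and cytoskeleton to -0.08 for zinc finger genes.

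Of 25 members of lipid and sterol metabolism, 18 were below 0, 16 (64%) had both CfzR libraries below both WT and 1 had both above (median -0.21; 4 lower, 16%, and 1 higher at an unadjusted p under 0.05). SCD, which makes monounsaturated fatty acids, stood at 111.5 and 110.3 FPKM in WT, against 84.4 and 57.1 in CfzR (ratio 0.638, adjusted p = 0.389, limma). Both CfzR libraries were lower, replicate 2 more so. IDI1, an isomerase of the mevalonate pathway, stood at 22.9 and 27.1 in WT, against 22.5 and 17.4 in CfzR. ACSL5, a long-chain acyl-CoA synthetase, was at 29.5 and 28.3 in WT, against 27.0 and 25.04 in CfzR, and GPAM, which starts triglyceride synthesis, at 1.17 and 1.31 and at 0.879 and 0.893. LIPA, the lysosomal acid lipase, lay the other way, with overlapping groups. It stood at 9.23 and 6.47 in WT, against 12.8 and 8.35 in CfzR. SGPL1, the lyase that ends sphingosine-1-phosphate signalling, was at 6.03 and 6.16 in WT, against 5.84 and 4.52 in CfzR, both lower.

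Among 36 mitochondrial members, 32 were below 0, 23 (63.9%) had both CfzR libraries below both WT and 1 had both above (median -0.28; 7 lower, 19.4%, and 1 higher at an unadjusted p under 0.05). TWNK, the helicase that unwinds mitochondrial DNA, stood at 12.1 and 14.97 FPKM in WT, against 6.63 and 7.84 in CfzR (ratio 0.534, log2 fold change -0.82 with an SE of 0.210, adjusted p = 0.222, limma). NDUFB8, described above, was the most abundant of the list. HK1, which binds the outer mitochondrial membrane, was the list's one member with both CfzR libraries above both WT.

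Translation and RNA processing had 35 members, 30 of them below 0, 21 (60%) with both CfzR libraries below both WT and 1 with both above (median -0.27). RPS24, a protein of the small ribosomal subunit, stood at 4485 and 5384 FPKM in WT, against 2627 and 3423 in CfzR (ratio 0.613, adjusted p = 0.558, limma). The groups did not overlap, but the libraries of each group were far apart. EIF3A, a subunit of an initiation factor, stood at 70.2 and 85.9 in WT, against 59.96 and 48.9 in CfzR. PDCD11, a factor of ribosomal RNA processing in the lowest window, stood at 11.5 and 13.2 in WT, against 6.81 and 8.99 in CfzR. HNRNPF, a splicing regulator, was at 105.3 and 105.1 in WT, against 102.2 and 74.4 in CfzR, so that only CfzR replicate 2 was clearly lower. RPP30, a subunit of RNase P, stood at 45.1 and 65.6 in WT, against 33.6 and 33.9 in CfzR.

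In the secretory pathway, ER and lysosome list, 23 of 29 members were below 0, 18 (62.1%) with both CfzR libraries below both WT (median -0.25). Apart from SEC31B, the named members were CALHM2, a channel family protein, at 18.9 and 16.2 FPKM in WT, against 11.3 and 9.57 in CfzR, and DNAJC1, a J-domain protein of the ER membrane, at 708 and 792 in WT, against 428 and 571 in CfzR. Both had the CfzR libraries under WT. PSAP, the precursor of the saposins that activate lysosomal hydrolases, was nearly level at 169.9 and 172.4 in WT, against 161.0 and 164.4 in CfzR.

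Of 16 chaperone and stress members, 12 were below 0 (75%, median -0.23). For 10 (62.5%) both CfzR libraries were below both WT, and for 2 above both. BAG3, a co-chaperone of HSP70 that proteasome inhibition is known to induce, stood at 19.9 and 18.8 FPKM in WT, against 12.8 and 12.4 in CfzR (ratio 0.653, log2 fold change -0.58 with an SE of 0.185, adjusted p = 0.323, limma). NPM3, a nucleoplasmin, stood at 150.8 and 192.2 in WT, against 81.7 and 114.6 in CfzR. Both genes had non-overlapping groups, and DDIT4 of the same list lay the other way.

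Ubiquitin ligases and deubiquitinases had 17 of 20 members below 0, 9 (45%) with both CfzR libraries below both WT (median -0.20). Apart from FBXL15, TRIM8, a RING ubiquitin ligase, stood at 39.3 and 34 FPKM in WT, against 25.1 and 19.9 in CfzR, and PCGF6, a Polycomb RING protein, at 7.43 and 8.10 and at 4.93 and 4.07. The cullin CUL2 stood at 13.1 and 15.8 in WT, against 13.9 and 11.1 in CfzR. BTRC, the receptor of the SCF ligase that targets inhibitors of NF-kB, was at 2.36 and 3.52 in WT, against 2.31 and 2.05 in CfzR. UBE2D1, a ubiquitin-conjugating enzyme, had equal means, at 6.71 and 6.25 in WT, against 7.07 and 5.90 in CfzR.

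The NF-kB and immune list had 10 of 13 members below 0, 7 (53.8%) with both CfzR libraries below both WT (median -0.30). SRGN, the serglycin core protein of haematopoietic secretory granules, stood at 590.2 and 721.9 FPKM in WT, against 387.6 and 385.3 in CfzR (ratio 0.589, log2 fold change -0.76 with an SE of 0.268, adjusted p = 0.369, limma). The CfzR libraries were level with each other and under both WT. NFKB2 stood at 244.9 and 326.6 in WT, against 157.9 and 313.3 in CfzR, so its groups overlapped and its CfzR libraries lay far apart. CHUK, the kinase that triggers NFKB2 processing, was at 4.18 and 5.47 in WT, against 4.35 and 4.34 in CfzR, and MAP3K8 at 4.45 and 4.83 and at 4.24 and 4.18.

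Adhesion and cytoskeleton had the lowest list median, -0.39, with 11 of 13 members below 0. For 8 (61.5%) both CfzR libraries were below both WT, and for 1 above both. VCL, vinculin of focal adhesions, stood at 23.3 and 20.4 FPKM in WT, against 14.2 and 10.4 in CfzR (ratio 0.563, log2 fold change -0.79 with an SE of 0.219, adjusted p = 0.259, limma). PDLIM1, an actin-associated LIM protein, stood at 137.9 and 153.0 in WT, against 86.1 and 92.3 in CfzR. VIM, the intermediate filament vimentin, was at 2552 and 2130 in WT, against 1969 and 1613 in CfzR. These 3 genes had both CfzR libraries under WT, while ITGB1, the integrin beta 1 chain, lay on both sides of WT, at 37.1 and 36.6 in WT, against 45.5 and 28.7 in CfzR.

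Chromatin and transcription factors had 19 of 28 members below 0, 12 (42.9%) with both CfzR libraries below both WT and 3 with both above (median -0.17). KLF6, a zinc finger factor, stood at 54.3 and 86.5 FPKM in WT, against 34.9 and 65.0 in CfzR, and BMI1, a Polycomb RING protein, at 456 and 489 in WT, against 503 and 363 in CfzR. In both genes the groups overlapped. ZEB1, a repressor of epithelial genes, was at 4.73 and 4.86 in WT, against 4.68 and 3.65 in CfzR. The 16 zinc finger genes had the highest list median, -0.08, with 12 below 0; ZNF487 (5.49 and 5.98 in WT, 2.83 and 4.36 in CfzR) and ZNF503 (4.06 and 4.05, 2.998 and 2.40) had the smallest p of that list, and ZNF511 (47.9 and 41.7, 31.1 and 38.2) was the most abundant.

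Growth signalling had 18 of 23 members below 0, 11 (47.8%) with both CfzR libraries below both WT and 1 with both above (median -0.24), led by FRAT1 and FRAT2. DUSP5, a phosphatase of ERK, stood at 127.8 and 139.9 FPKM in WT, against 94.4 and 108.8 in CfzR. The cell cycle list had 21 of 23 members below 0, but its median was -0.16 and none had an unadjusted p under 0.05. CDK1 stood at 55.9 and 67.9 in WT, against 60.3 and 61.4 in CfzR, KIF11, the spindle kinesin, at 22.2 and 23.3 and at 26.8 and 20.3, and MKI67 at 20.6 and 16.2 and at 23.4 and 11.2. The groups overlapped in each of these genes. BUB3, of the spindle checkpoint, was at 113.2 and 135.4 in WT, against 95 and 99.6 in CfzR, with no overlap. CCDC6 stood at 6.25 and 6.95 in WT, against 4.92 and 3.83 in CfzR. SMC3, a cohesin subunit, and ANAPC16, of the anaphase-promoting complex, had ratios of 0.967 and 0.921.

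DNA replication and repair had 10 of 15 members below 0, 6 (40%) with both CfzR libraries below both WT and 2 with both above (median -0.10). FBH1, a DNA helicase, was its most abundant member and stood at 323.4 and 339.9 FPKM in WT, against 156.5 and 278.6 in CfzR (ratio 0.656, log2 fold change -0.66 with an SE of 0.318, adjusted p = 0.493, limma). Both CfzR libraries were under WT, replicate 1 by far the more. In this list the 2 smallest p belonged to PAPSS2 and RPP30, neither of them a repair gene. FRA10AC1, in the lipid list, stood at 13.8 and 17.8 in WT, against 7.81 and 10.6 in CfzR (ratio 0.583).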

How the data were processed

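Messenger RNA of 4 ARP-1 libraries (2 WT, 2 CfzR) was sequenced. The authors deposited 1 table of FPKM values for 15201 Ensembl gene IDs, made with STAR and Cufflinks per the submitters' processing notes; for versions, genome build, annotation and strandedness, nothing is given in the sources used here. The unit was read from the tool, the header and the decimal values. Columns named for a control were assigned to WT as the only other group. The values hold no counts, so depth is unknown and counting error cannot be given.

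Positions, arms (divided at 40 Mb), transcript lengths and GC shares came from GENCODE release 29 by gene ID, and 709 rows had none. The authors gave no coordinates in the table. Values were transformed to log2(FPKM + 1), and the 13411 genes whose mean reached 1 FPKM were tested, two-sided, in R 4.3.3 by limma 3.58.1 (lmFit and eBayes, variance trend on), with p adjusted by Benjamini-Hochberg to a threshold of 0.05. Fold changes on this scale understate changes of genes with low values. The main fit was tested on simulated data, and the alternatives were not.

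The chromosome, its members, the role lists and the tests were chosen with earlier results of these data known. Named genes are members past the adjusted threshold; the 12 highest and 12 lowest with an unadjusted p under 0.05, groups that do not overlap and a group mean of at least 5 FPKM; the 2 smallest p and the most abundant of each role list; the ends of the extreme windows; and a fixed set of 35 genes, 30 of which are members and the rest not analysed here. Other genes, the ranges of level, GC share and length, the pairs of libraries, the plain ratios, the limits of 50 genes and 47% GC for arms, and the levels around BMI1 were chosen after values were seen. Same-numbered libraries deviated together across genes (r = 0.252), but the labels do not tie numbers to cultures, so they were not paired.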

Additional observations from a re-analysis of the deposited data

How the results depend on the processing

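Chromosome 10, 10p and 10q kept a median below 0 and below the other autosomes under every alternative run. With a pseudocount of 5 the medians were -0.15, -0.15 and -0.16, and -0.14, -0.14 and -0.15 relative to the other autosomes. With a filter at 5 FPKM chromosome 10 stood at -0.3 and 10q at -0.32, and after quantile normalization 10p stood at -0.19. Leaving out 1 library gave -0.26 to -0.2 (chromosome 10), -0.23 to -0.17 (10p) and -0.27 to -0.21 (10q), and -0.27 to -0.17, -0.23 to -0.13 and -0.27 to -0.18 relative to the other autosomes, the weakest without CfzR replicate 2.

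The lowest window was -0.56 (pseudocount 0.1), -0.41 (pseudocount 5), -0.45 (no filter), -0.43 (quantile), -0.46 (length and GC correction), -0.58 (windows of 11 genes), -0.43 (41 genes) and -0.59 to -0.44 without 1 library. The highest window, 0.009 as reported, fell below 0 with a pseudocount of 5 (-0.0037), a 5 FPKM filter (-0.0183), quantile normalization (-0.017), the correction (-0.0563) and windows of 41 genes (-0.0696), and ran from -0.0338 to 0.062 without 1 library; the cause was not tested.

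ATRNL1, the 1 call, was not tested under the 5 FPKM filter, which left 0 calls. Leaving out 1 library left 0 to 5. With the replicate block, which leaves 1 residual degree of freedom, 51 members (46 lower, 5 higher) and 1242 of all genes were called (47 without the block). At an unadjusted p under 0.05 in limma, 13.1% of members were lower as reported, beside 5.81% of all genes. It was 25.6% after the correction and 25.4% with the block, and it also changed with the library left out. No share over all genes was made for these alternatives, so the changes cannot be read as particular to chromosome 10.

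Of 69 named genes, 57 kept their sign throughout. Signs turned under quantile normalization for ANAPC16 (0.064), BMI1 (0.177), CDK1 (0.133), ITGB1 (0.094), PSAP (0.170) and SMC3 (0.021); under TMM for UBE2D1 (0.009); under the correction for KIF11 (-0.146) and PSAP (0.006); and, over the fits without 1 library, for BMI1 (-0.38 to 0.09), CDK1 (-0.156 to 0.12), CHUK (-0.275 to 0.046), ITGB1 (-0.348 to 0.298), KIF11 (-0.16 to 0.225), MKI67 (-0.665 to 0.341), NFKB2 (-0.837 to 0.147), SIRT1 (-0.111 to 0.43), SMC3 (-0.156 to 0.062) and UBE2D1 (-0.116 to 0.111). The cause was not tested.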

Other observations

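A stretch of 10p around BMI1, chosen after values were seen, held several abundant genes. COMMD3, which takes part in endosomal sorting, stood at 1088 and 1131 FPKM in WT, against 682 and 887 in CfzR, and BMI1, 0.9 kb away on the same strand, at 456 and 489 and at 503 and 363. DNAJC1 stood at 708 and 792 in WT, against 428 and 571 in CfzR, the noncoding ENSG00000285254 at 117 and 115 and at 81.2 and 94.2, and PIP4K2A, a phosphoinositide kinase, at 81.7 and 77.7 and at 70.5 and 52.9. The median member of 10p had a mean of 9.25 FPKM over the 4 libraries. MLLT10, a partner of the DOT1L methyltransferase that lies next to DNAJC1, stood at 24.4 and 30.6 in WT, against 21.4 and 22.01 in CfzR, and SPAG6, on the far side of BMI1, at 1.46 and 1.69 and at 1.70 and 1.39. High levels were thus present in WT and CfzR alike, and neighbours in the same stretch differed widely in level.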
